A study of Mus musculus with 32 samples.

Results

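Casp1, Casp6, Casp8, Casp12, Ripk3, Mlkl, Gsdmd and Fas, 8 genes of the caspase, necroptosis and pyroptosis pathways, were followed in mouse liver RNA-seq data. They were taken by gene symbol from 2 tables of raw read counts, 1 for females and 1 for males, and all 8 were found among the 41585 gene entries of each table and had enough counts to be tested in both. Wildtype (WT) mice and mice that lack Cyp2b9, Cyp2b10 and Cyp2b13 (Cyp2b9/10/13-null, here Cyp2b-null) were fed either normal chow (ND) or CDAHFD, a high fat diet of defined L-amino acids that lacks choline, to ask whether Cyp2b loss alters diet-induced steatohepatitis. Each combination of genotype, diet and sex had 4 libraries, which gave 8 groups and 32 libraries.

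The mice of every group were on the C57BL/6 background (C57Bl/6J in the study's methods), were 10 weeks old at the start and were fed for 8 weeks. CDAHFD held 62% fat and 0.1% methionine. Cyp2b-null mice carried a CRISPR/Cas9 deletion of these genes and were developed by the laboratory, while WT mice were bought, so that genotype and origin cannot be told apart. RNA came from whole liver, in which fewer cells of a type and less RNA per cell cannot be told apart.

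Regulated cell death runs along linked routes. Death receptors such as Fas recruit the initiator caspase Casp8, which activates executioner caspases. Where Casp8 is not active, the kinase Ripk3 can phosphorylate Mlkl, which then ruptures the plasma membrane (necroptosis), and inflammasomes activate Casp1, which cleaves interleukin-1β, interleukin-18 and the pore-forming Gsdmd (pyroptosis). In fatty liver disease, death of hepatocytes along these routes is known to go with inflammation and fibrosis.

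Total counts ranged from 2906411 to 10166959 per library. Cyp2b9 and Cyp2b13 had 1371 to 3530 and 878 to 2351 counts in ND-fed WT females. In ND-fed Cyp2b-null females they had at most 8 and 0 counts. CDAHFD-fed females had 683 to 1151 counts of Cyp2b9 in WT and 2 to 7 in Cyp2b-null mice. ND-fed males were separated by Cyp2b10 (33 to 97 and 1 to 9 counts), but not by Cyp2b9 (0 to 15 and 4 to 18). CDAHFD-fed males were separated by Cyp2b9 (118 to 364 and 2 to 7 counts), but not by Cyp2b10 (0 to 7 and 0 to 6). Hepatocyte markers were abundant in every group. In females 13226 genes were tested and in males 13460. The third library of the CDAHFD-fed Cyp2b-null females stood apart, with a median rank correlation of 0.903 with its own group against at least 0.9477 for every other library. Levels are given as CPM, counts relative to each library's total after scaling with TMM factors, and 3 counts corresponded to 0.247 to 1.17 CPM, depending on the library.

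CDAHFD raised the same 4 members wherever a member changed: Mlkl, Casp1 and Casp12 rose in both sexes and both genotypes, and Ripk3 rose in Cyp2b-null females and in males of both genotypes. Their log2 fold changes, CDAHFD over ND, lay between 0.90 and 2.77 where they were called, at an adjusted p under 0.05. Fas, Casp8, Casp6 and Gsdmd did not pass the test in any of the 4 diet comparisons, and their log2 fold changes lay between -0.20 and 0.36. With scaling by total counts alone, each of these 4 passed in at least 1 comparison. No member passed the test for a genotype effect on either diet.

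Promoter sequences of 3 of the 4 genes that rose are shown because these members moved together with the diet. RefSeq promoter windows (build GRCm38.p6) were matched for 7 of the 8 members and hold the 250 bases before the start of 1 transcript, which was the outermost start of the gene for Casp1, Casp6 and Ripk3. The start used lay inside the annotated gene by 34 bases in Casp12, 12 in Fas, 274 in Mlkl and 7269 in Casp8, so that the Mlkl and Casp8 windows lie wholly within their genes, and that of Mlkl is not shown. The Casp12 window is shown without its last 21 bases, and the last 13 bases shown still lie within the gene, whose outermost start is at 5345442. Capitals mark matches to TTCNNNGAA, the GAS element bound by STAT factors, and to GGGCGG, the GC box bound by Sp1.
Casp1, chr9:5298267-5298516, plus strand: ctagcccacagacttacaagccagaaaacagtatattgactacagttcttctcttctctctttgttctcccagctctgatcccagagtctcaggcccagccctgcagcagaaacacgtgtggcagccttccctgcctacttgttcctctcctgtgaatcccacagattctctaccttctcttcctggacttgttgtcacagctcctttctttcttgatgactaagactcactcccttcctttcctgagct
Casp12, chr9:5345226-5345454, plus strand: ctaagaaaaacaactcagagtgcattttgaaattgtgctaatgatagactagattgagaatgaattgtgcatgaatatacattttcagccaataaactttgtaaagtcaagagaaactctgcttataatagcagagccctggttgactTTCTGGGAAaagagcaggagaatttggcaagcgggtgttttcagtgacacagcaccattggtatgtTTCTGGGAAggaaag
Ripk3, chr14:55788858-55789107, minus strand: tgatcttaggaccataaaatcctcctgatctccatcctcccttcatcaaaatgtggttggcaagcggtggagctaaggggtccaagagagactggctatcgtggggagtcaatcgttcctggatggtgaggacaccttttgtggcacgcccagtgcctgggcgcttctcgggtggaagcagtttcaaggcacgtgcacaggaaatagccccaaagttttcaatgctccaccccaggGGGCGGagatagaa

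Both strands were searched for these motifs and for the interferon-stimulated response element, the AP-1 site and the TATA box, and no match overlapped another. The Casp12 window held 2 copies of TTCTGGGAA, at -102 to -94 and -36 to -28 from the transcript start at 5345476. The second copy, at 5345440 to 5345448, spans the outermost start of the gene. The Fas window held the same 9 letters at -93 to -85 from its transcript start. TTCNNNGAA occurred in 7.02% of 32851 windows of this length. A GC box was found in Ripk3 at -14 to -9 from its start, in Casp6 and in Fas, and in 32.7% of all windows. Fas also held 1 AP-1 site, TGAGTCA, and the AP-1 motif TGANTCA was present in 6.75% of windows. The interferon-stimulated response element, present in 2.98% of windows, was in none of the 7 members' windows. The TATA box, TATAAA, present in 12.4% of windows, was likewise in none of the 7 members' windows, and the windows of Casp1, Mlkl and Casp8 held none of the 5 motifs. These matches describe letters only.

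Mlkl, the pseudokinase that executes necroptosis, had the diet effect with the smallest adjusted p of the 8 members in all 4 comparisons. In ND-fed WT females its level was 5.80, 7.4, 4.41 and 10.2 CPM, and in CDAHFD-fed WT females 20.7, 17.0, 19.5 and 18.0 CPM. In Cyp2b-null females it was 4.86, 4.01, 6.63 and 5.91 CPM on ND and 15.1, 17.1, 17.9 and 15.9 CPM on CDAHFD. Every CDAHFD-fed female was above every ND-fed female. In WT males Mlkl was at 2.35, 2.93, 2.69 and 3.86 CPM on ND and at 13.8, 19.2, 10.8 and 16.1 CPM on CDAHFD. In Cyp2b-null males it was at 5.25, 2.68, 3.52 and 3.92 CPM on ND and at 14.1, 15, 16 and 15.8 CPM on CDAHFD. The males' groups did not overlap either, and both ND-fed male groups had lower means than any other group. The log2 fold change was 1.39 ± 0.21 (SE, adjusted p = 4.1e-05) in WT females and 1.64 ± 0.22 (adjusted p = 1e-05) in Cyp2b-null females. It was 2.34 ± 0.24 (adjusted p = 1.41e-07) in WT males and 1.93 ± 0.22 (adjusted p = 6.79e-07) in Cyp2b-null males. The ratio of the group means was 2.70 and 3.08 in the females and 5.06 and 3.96 in the males, WT first.

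Ripk3, the kinase upstream of Mlkl, was scarce, with 0 to 45 counts per library, and its diet effect was called in every comparison but that of WT females. In WT females it was at 3.0, 1.95, 2.03 and 1.90 CPM on ND and at 1.78, 2.67, 2.87 and 2.26 CPM on CDAHFD, and these groups overlapped. In Cyp2b-null females it was at 0.607, 1.40, 1.17 and 1.35 CPM on ND and at 3.37, 3.12, 4.33 and 3.48 CPM on CDAHFD, with no overlap. The log2 fold change was 0.08 ± 0.32 (adjusted p = 0.902) in WT females, with a 95% confidence interval of -0.59 to 0.75, and 1.58 ± 0.35 (adjusted p = 0.00105) in Cyp2b-null females. The difference between these effects was 1.5 ± 0.47 (adjusted p = 0.76, unadjusted p under 0.05), so that it did not hold up. In ND-fed females Ripk3 was lower in Cyp2b-null mice by a log2 value of -0.92 ± 0.38 (adjusted p = 0.795, unadjusted p under 0.05).

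In WT males Ripk3 was at 0.362, 0, 0.808 and 0.859 CPM on ND and at 0.933, 4.91, 1.73 and 2.97 CPM on CDAHFD. The lowest CDAHFD-fed library was only just above the highest ND-fed library. In Cyp2b-null males it was at 0.547, 1.34, 1.66 and 0.654 CPM on ND and at 3.64, 1.64, 3.70 and 3.03 CPM on CDAHFD, where a single library of each group overlapped. The log2 fold changes were 2.31 ± 0.67 (adjusted p = 0.00661) in WT males and 1.57 ± 0.56 (adjusted p = 0.0286) in Cyp2b-null males. The call in Cyp2b-null males was lost without ND-fed Cyp2b-null library 1 or 4 or CDAHFD-fed Cyp2b-null library 1 or 3, where the adjusted p lay between 0.0607 and 0.104. ND-fed WT males had 0 to 6 counts of Ripk3, so that the size of the rise there rests on few reads.

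Casp1, the inflammasome protease, also rose in all 4 comparisons. In WT females it was at 3.0, 1.95, 2.37 and 2.42 CPM on ND and at 4.91, 4.12, 5.74 and 4.03 CPM on CDAHFD. In Cyp2b-null females it was at 4.55, 4.01, 1.95 and 3.21 CPM on ND and at 7.53, 5.75, 9.02 and 4.85 CPM on CDAHFD. In each genotype all CDAHFD-fed females were above all ND-fed females, by a small margin in Cyp2b-null mice. In WT males it was at 2.72, 0, 1.62 and 1.5 CPM on ND and at 2.80, 4.91, 7.25 and 5.07 CPM on CDAHFD. In Cyp2b-null males it was at 1.53, 0.895, 0.207 and 1.74 CPM on ND and at 6.96, 3.90, 7.48 and 5.66 CPM on CDAHFD. The males' groups did not overlap, and the WT margin was narrow. The log2 fold change was 0.90 ± 0.31 (adjusted p = 0.0317) in WT females and 0.93 ± 0.28 (adjusted p = 0.0126) in Cyp2b-null females. It was 1.81 ± 0.53 (adjusted p = 0.00937) in WT males and 2.38 ± 0.55 (adjusted p = 0.00108) in Cyp2b-null males. The call in WT females was lost in 5 of 16 fits that left out 1 library, namely ND-fed WT library 2, 3 or 4 or CDAHFD-fed WT library 1 or 3, with an adjusted p of up to 0.0913, and also without the low-count filter (adjusted p = 0.0932).

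Casp12, a member of the inflammatory caspase group that is found at the endoplasmic reticulum in mice, rose likewise. It lies on chromosome 9, as does Casp1, with Casp1 at 5298517 to 5307281 and Casp12 at 5345442 to 5373034 (GRCm38.p6). In WT females it was at 2.20, 0.390, 1.69 and 2.25 CPM on ND and at 4.91, 5.58, 3.89 and 4.19 CPM on CDAHFD. In Cyp2b-null females it was at 2.12, 1.80, 0.780 and 1.69 CPM on ND and at 4.41, 4.11, 3.61 and 4.10 CPM on CDAHFD. All CDAHFD-fed females were above all ND-fed females. In WT males it was at 2.35, 1.14, 1.21 and 0.644 CPM on ND and at 1.31, 3.48, 6.91 and 6.64 CPM on CDAHFD. In Cyp2b-null males it was at 0.765, 0.671, 2.07 and 0 CPM on ND and at 4.75, 4.61, 10.4 and 3.84 CPM on CDAHFD. The WT males overlapped through 1 low CDAHFD-fed library, and the Cyp2b-null males did not overlap. The log2 fold change was 1.36 ± 0.34 (adjusted p = 0.0044) in WT females and 1.28 ± 0.35 (adjusted p = 0.00648) in Cyp2b-null females. It was 1.79 ± 0.57 (adjusted p = 0.0161) in WT males and 2.77 ± 0.63 (adjusted p = 0.000718) in Cyp2b-null males. The call in WT males was lost without CDAHFD-fed WT library 3 or 4 (adjusted p = 0.0711 and 0.0506).

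**Figure D1:**
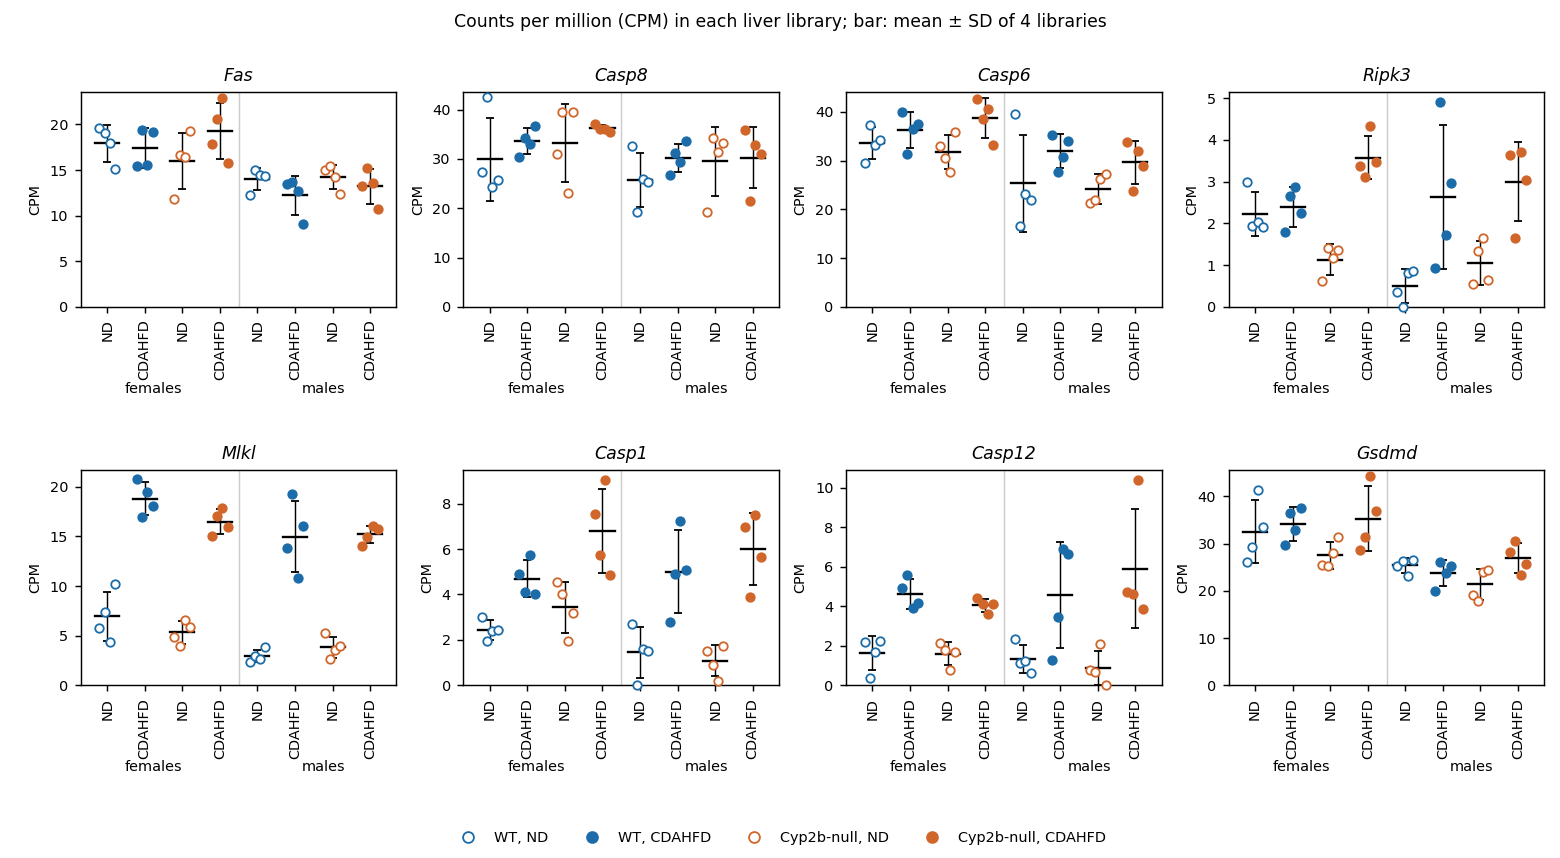
Level of each member in every library, in CPM on a linear axis from 0, for the 4 female groups (left of the grey line) and the 4 male groups (right). Open points are ND-fed and filled points CDAHFD-fed mice, blue is WT and orange Cyp2b-null, and the bars give the mean ± SD of 4 libraries; Mlkl separates the diets in every sex and genotype, while Fas, Casp8, Casp6 and Gsdmd overlap throughout.

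Fas, the death receptor, did not pass the test for diet. Its level was 15.1 to 19.6 CPM in ND-fed and 15.4 to 19.4 CPM in CDAHFD-fed WT females, and 11.8 to 19.2 and 15.8 to 22.9 CPM in Cyp2b-null females. In males it was 12.3 to 15 and 9.09 to 13.7 CPM in WT mice and 12.4 to 15.4 and 10.7 to 15.3 CPM in Cyp2b-null mice. The groups overlapped in every comparison, and the log2 fold changes were -0.04 ± 0.17, 0.25 ± 0.17, -0.20 ± 0.16 and -0.10 ± 0.16 in WT females, Cyp2b-null females, WT males and Cyp2b-null males. The 95% confidence intervals of these together reached from -0.54 to 0.61.

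Casp8, the initiator caspase downstream of Fas, was at 24.4 to 42.5 CPM in ND-fed WT females and at 30.3 to 36.7 CPM in CDAHFD-fed WT females. Its log2 fold changes, in the same order, were 0.18 ± 0.18, 0.10 ± 0.17, 0.23 ± 0.19 and 0.05 ± 0.19, with adjusted p-values between 0.382 and 0.862. Casp6, an executioner caspase that cleaves nuclear lamins, had log2 fold changes of 0.12 ± 0.13, 0.28 ± 0.13, 0.34 ± 0.20 and 0.30 ± 0.20, with adjusted p-values between 0.123 and 0.583. Without the first ND-fed WT male library, at 39.6 CPM against 16.6 to 23.2 CPM in the others, the Casp6 effect in WT males was 0.64 (adjusted p = 0.00539).

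Gsdmd, the pore-forming substrate of Casp1, was at 26 to 41.4 CPM in ND-fed and 29.7 to 37.5 CPM in CDAHFD-fed WT females. Its log2 fold change was 0.08 ± 0.16 in WT females, 0.36 ± 0.16 in Cyp2b-null females, -0.09 ± 0.14 in WT males and 0.34 ± 0.14 in Cyp2b-null males. The smallest adjusted p was 0.0556, in Cyp2b-null males, where leaving out a single library gave values from 0.0379 to 0.168, and where it was called with DESeq2 (0.36, adjusted p = 0.0485) and with RLE factors in edgeR (0.35, adjusted p = 0.0497). The groups overlapped in all 4 comparisons. Casp1 passed the test in all 4 comparisons and its substrate Gsdmd in none, and whether their changes differed was not tested.

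Counted together, 3 of 8 members were called in WT females, where 24.1% of all genes tested were called and 13.9% were called as higher. In Cyp2b-null females 4 of 8 were called, against 30.8% of all genes and 16.9% as higher. In WT males 4 of 8 were called, against 33% and 18% as higher, and in Cyp2b-null males 4 of 8, against 37.4% and 20.3% as higher. No member was called as lower, against 10.2%, 13.9%, 15% and 17.1% of all genes in the 4 comparisons. The median log2 fold change over the 8 members was 0.15 in WT females, 0.65 in Cyp2b-null females, 1.06 in WT males and 0.96 in Cyp2b-null males, against 0.00, 0.03, -0.02 and -0.01 over all genes tested. The ranges of CPM did not overlap, higher on CDAHFD, for 3, 4, 3 and 3 members in that order, as for 14.6%, 16.3%, 15.9% and 19.8% of all genes. Without the library that stood apart, 4 members were still called in Cyp2b-null females, with Casp1 at 0.75 (adjusted p = 0.0445).

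The scaling of the libraries bears on the members that were not called. With scaling by total counts alone, the median log2 diet effect over all genes moved from near 0 to 0.32 in WT females, 0.28 in Cyp2b-null females, 0.37 in WT males and 0.36 in Cyp2b-null males. Mlkl, Casp1 and Casp12 were called as higher in all 4 comparisons under either scaling, and Ripk3 in the same 3. Casp6 was then also called in all 4 comparisons, at 0.44, 0.53, 0.72 and 0.67 in WT females, Cyp2b-null females, WT males and Cyp2b-null males. Casp8 was called in WT females (0.51) and WT males (0.62), and Gsdmd in Cyp2b-null females (0.61) and Cyp2b-null males (0.71), while Fas was called in Cyp2b-null females (0.50). Fas, by contrast, turned from negative to positive in WT females (0.28), WT males (0.19) and Cyp2b-null males (0.28), and Gsdmd in WT males (0.31), none of them called. In all, 5, 7, 6 and 6 members were called under that scaling.

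**Figure D2:**
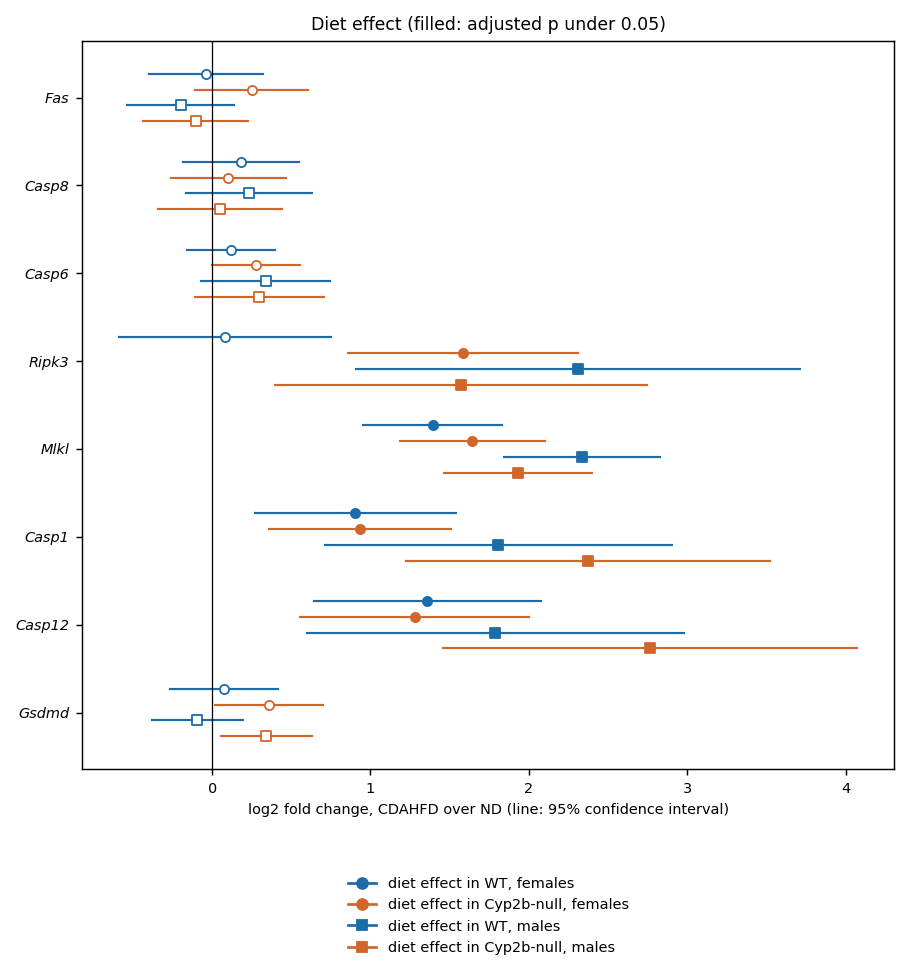
Log2 fold change of each member, CDAHFD over ND, with its 95% confidence interval, in WT (blue) and Cyp2b-null (orange) females (circles) and males (squares). Filled symbols have an adjusted p under 0.05; they are found at Mlkl, Casp1, Casp12 and Ripk3, with Ripk3 in WT females open at 0.08.

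The comparison of genotypes asked whether loss of Cyp2b changed these genes. On CDAHFD no member was called in females, where the log2 fold changes, Cyp2b-null over WT, lay between -0.19 and 0.58 and 0.0227% of all genes were called, nor in males, where they lay between -0.11 and 0.36 and 0.0297% were called. No member reached an unadjusted p under 0.05 in either sex. The highest values in females were those of Ripk3 (0.58 ± 0.29, adjusted p = 0.826) and Casp1 (0.51 ± 0.26, adjusted p = 0.826). In both sexes the means of CDAHFD-fed Mlkl were close, at 18.8 ± 1.6 (SD, n = 4) CPM in WT and 16.5 ± 1.2 CPM in Cyp2b-null females and at 15 ± 3.6 and 15.2 ± 0.88 CPM in males. The 95% confidence interval of the Mlkl difference was -0.58 to 0.20 in females and -0.37 to 0.44 in males.

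On ND no member was called either, against 0.0756% of all genes in females and 0.0371% in males. The 8 values lay between -0.92 (Ripk3) and 0.48 (Casp1) in females and between -0.61 (Casp12) and 0.95 (Ripk3) in males, so that Ripk3 was lowest in Cyp2b-null females and highest in Cyp2b-null males relative to WT of the same sex. The diet effects of the genotypes did not differ for any member after adjustment, where edgeR called 0% of all genes in females (830 had an unadjusted p under 0.05, and DESeq2 called 2) and 0.00743% in males. Beside Ripk3 in females, Gsdmd in males had an unadjusted p under 0.05 for this difference, with 0.44 ± 0.19 (adjusted p = 0.801). The genotype and interaction tests use the same libraries as the diet tests and are not separate evidence.

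The diet effects of males and females were compared in 1 fit of all 8 groups. In WT mice the males' effect was larger for Ripk3 by a log2 value of 2.24 ± 0.72 (adjusted p = 0.136) and for Mlkl by 0.97 ± 0.31 (adjusted p = 0.161). In Cyp2b-null mice it was larger for Casp1 by 1.45 ± 0.61 (adjusted p = 0.174) and for Casp12 by 1.51 ± 0.74 (adjusted p = 0.251). These 4 differences had an unadjusted p under 0.05, and no member was called, where 0.97% of all genes in WT and 3.4% in Cyp2b-null mice were called. Without the first CDAHFD-fed WT male library the Ripk3 difference was 2.51 and called (adjusted p = 0.0389). For this fit all libraries were scaled together, while the CPM values were scaled within each table. The sexes were in separate tables, so that sex and table cannot be told apart. Their Mlkl levels side by side were 2.35 to 5.25 CPM in ND-fed males against 4.01 to 10.2 CPM in ND-fed females, while the CDAHFD-fed ranges of 10.8 to 19.2 and 15.1 to 20.7 CPM overlapped. The sex difference of the genotype effect on CDAHFD was called for no member and for 0.00713% of all genes.

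**Figure D3:**
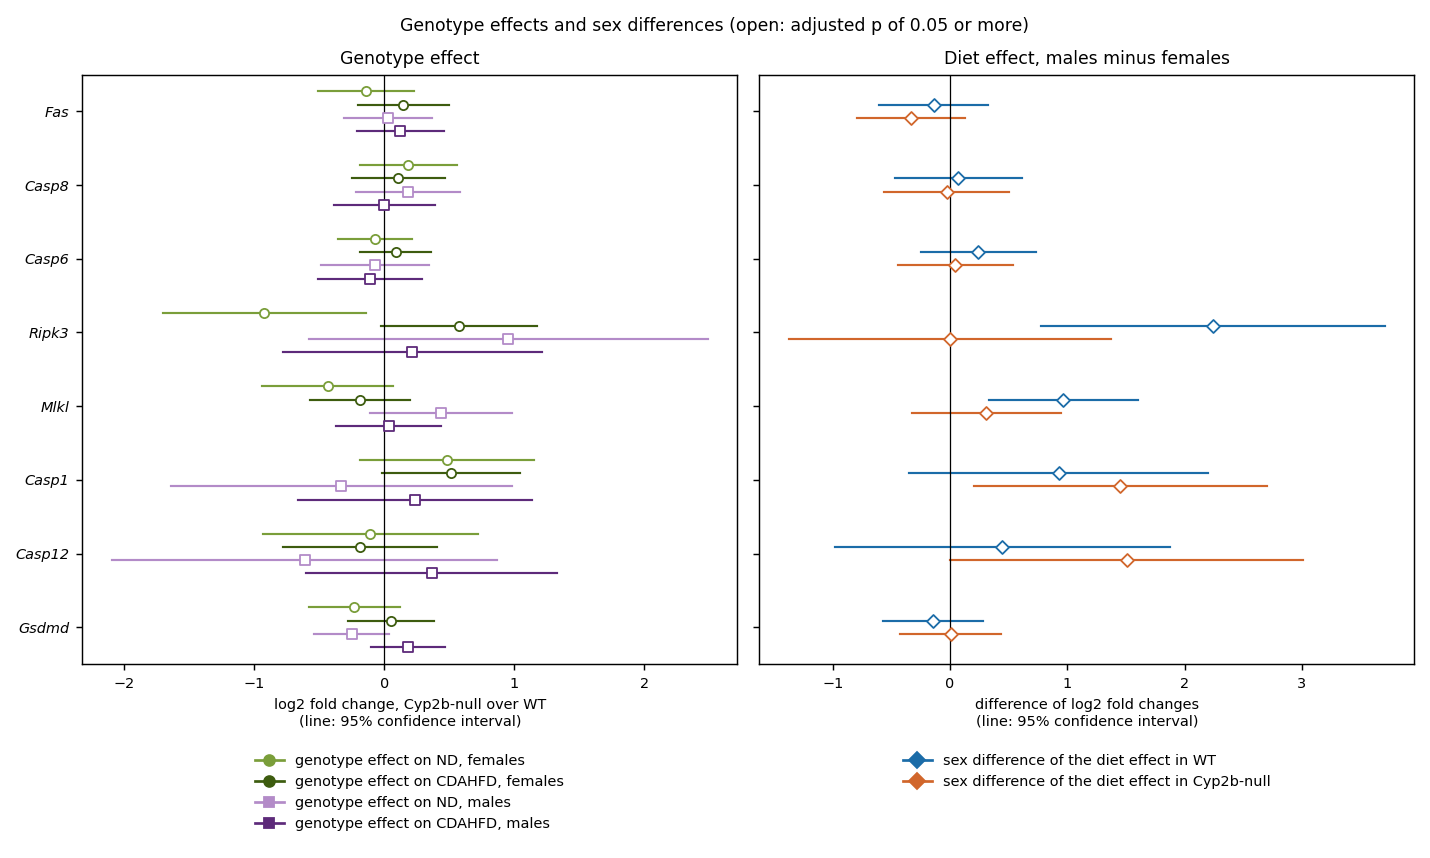
Left, log2 fold change of each member, Cyp2b-null over WT, on ND and CDAHFD in females (circles) and males (squares). Right, the males' log2 diet effect minus the females', in WT (blue) and Cyp2b-null (orange); lines are 95% confidence intervals, and every symbol is open because no adjusted p was under 0.05, the smallest being 0.136 for Ripk3 in WT mice.

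Markers of other cells also differed between the diets. The summed level of 8 macrophage and Kupffer cell markers was 412 to 669 CPM in ND-fed and 904 to 1110 CPM in CDAHFD-fed WT females, and 394 to 617 and 938 to 1463 CPM in Cyp2b-null females. In males it was 166 to 341 and 632 to 1289 CPM in WT mice and 189 to 253 and 859 to 1490 CPM in Cyp2b-null mice. Of these markers 7 could be tested, of which 5, 5, 6 and 6 were called as higher in WT females, Cyp2b-null females, WT males and Cyp2b-null males and 1, 0, 0 and 0 as lower. In WT females, where 5 of these markers rose, Ripk3 did not pass the test (log2 fold change 0.08, confidence interval -0.59 to 0.75). Ripk3 had only 5 to 15 counts per ND-fed library there, and whether its change differed from those of the markers was not tested. Lyz2, a lysozyme of myeloid cells, rose by 2.46, 2.65, 4.34 and 4.6 on the log2 scale, and Cd68, a lysosomal protein of macrophages, by 2.52, 2.35, 3.70 and 4.00. The males' diet effect on Lyz2 was larger by 1.91 ± 0.39 in WT (adjusted p = 0.00931) and by 1.97 ± 0.39 in Cyp2b-null mice (adjusted p = 0.00386). Clec4f, of resident Kupffer cells, was called in none of the 4 comparisons, but as higher in males of both genotypes (0.76 and 0.65) with total counts alone. Vsig4, a complement receptor of the same cells, fell in WT females (-0.69, adjusted p = 0.0417; -0.37 and not called with total counts alone), was at -0.51 in Cyp2b-null females (adjusted p = 0.108) and rose in males (0.74 and 0.76). The summed neutrophil markers were at 0.181 to 2.11 CPM on ND and 3.17 to 16.9 CPM on CDAHFD. Trem2, of the macrophage list, and Ly6g, which defines neutrophils, were listed at 0 in all libraries, as was the ligand Tnf of the wider pathway. Whether the counting step dropped the reads of these 3 genes was not tested, and the 0 is not read as a lack of expression. The summed level of 6 stellate cell markers was 233 to 326 CPM in ND-fed and 372 to 505 CPM in CDAHFD-fed WT females, 234 to 282 and 401 to 510 CPM in Cyp2b-null females, 129 to 177 and 282 to 418 CPM in WT males and 119 to 167 and 345 to 462 CPM in Cyp2b-null males, with no overlap. The cholangiocyte markers were at 5.41 to 8.50 CPM in ND-fed and 10.5 to 22.2 CPM in CDAHFD-fed females, and overlapped in males. The summed endothelial cell markers were lower on CDAHFD in females, at 158 to 223 CPM against 218 to 292 CPM on ND. These sums had no overlap in Cyp2b-null females and a slight one in WT females, and overlapped in males. Of 6 such markers tested, 0 were called as higher and 2 as lower in WT females, and 0 and 3 in Cyp2b-null females. In WT males 1 was called as higher and 1 as lower, and in Cyp2b-null males 3 and 0. The T and NK cell markers were at 3.945 to 5.907 CPM in ND-fed and 7.56 to 14.6 CPM in CDAHFD-fed Cyp2b-null females. In Cyp2b-null males they were at 2.83 to 4.155 and 4.51 to 10.9 CPM, and they overlapped in WT mice of both sexes. The B cell markers were at most 10.3 CPM in any library and overlapped in every comparison of diets. The summed level of 6 hepatocyte markers was 104800 to 188400 CPM on ND and 58190 to 109800 CPM on CDAHFD. The part of these cells in the diet effects of Mlkl, Ripk3, Casp1 and Casp12 was not tested.

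Of the wider pathway, 71 further genes in 7 lists were examined, and the lists share some genes. In WT females 19 of the 63 tested were called as higher and 5 as lower, and in Cyp2b-null females 23 and 8. In males 62 were tested, of which 30 were called as higher and 8 as lower in WT mice and 29 and 7 in Cyp2b-null mice. Their median log2 fold change was 0.38, 0.39, 0.47 and 0.48 in WT females, Cyp2b-null females, WT males and Cyp2b-null males. More of these genes were called as higher than as lower in all 4 comparisons, which also held for all genes tested, with 13.9%, 16.9%, 18% and 20.3% of all genes called as higher and 10.2%, 13.9%, 15% and 17.1% as lower. With total counts alone the balance moved further, to 35 higher and 1 lower, 35 and 4, 40 and 0, and 36 and 1, in the same order. RLE factors left these counts as they were.

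Of the other caspases, Casp9, the initiator of the mitochondrial route, was called in none of the 4 comparisons, but as higher in 1 of them with total counts alone. Casp4, the lipopolysaccharide-sensing inflammatory caspase known in mice as caspase-11, rose in males, by 2.24 ± 0.52 in WT and 2.08 ± 0.48 in Cyp2b-null mice. In females its values were 1.42 ± 0.54 and 1.12 ± 0.46, with adjusted p-values of 0.05 and 0.0616. It had 0 to 8 counts in ND-fed WT females.

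Of 12 death ligands, receptors and adaptors tested, 3, 5, 4 and 4 were called as higher and 1, 2, 1 and 0 as lower in the 4 diet comparisons, WT females first, then Cyp2b-null females, WT males and Cyp2b-null males. Of all genes, 13.9%, 16.9%, 18% and 20.3% were called as higher and 10.2%, 13.9%, 15% and 17.1% as lower, and the counts of each list below stand against these shares. Tnfrsf10b, the mouse receptor for the ligand TRAIL, rose from 0.293 ± 0.478 to 4.16 ± 1.53 CPM (SD, n = 4) in WT females, with a log2 fold change of 3.43 ± 0.73 there and 3.14 ± 0.72 in Cyp2b-null females. It also rose in males, from at most 3 counts in any ND-fed library. Tnfrsf21, another death receptor, rose by 0.83 to 1.81 on the log2 scale. Cflar, which encodes the Casp8 inhibitor cFLIP, fell in WT females (-0.65 ± 0.19), Cyp2b-null females (-0.89 ± 0.19) and WT males (-0.41 ± 0.15), with a value of -0.31 ± 0.15 (adjusted p = 0.112) in Cyp2b-null males. With total counts alone Cflar was called only in Cyp2b-null females (-0.61), and its value in Cyp2b-null males turned to 0.058. Ripk1, the kinase that binds Ripk3, and Bid, the Casp8 substrate that links to mitochondria, were called in none, but as higher with total counts alone in Cyp2b-null males (Ripk1, 0.57) and in WT males (Bid, 1.01). Fadd, the adaptor between Fas and Casp8, was called only in Cyp2b-null females (0.59 ± 0.21, adjusted p = 0.0338), and the difference from WT was not called. Fadd was called as higher in all 4 with total counts alone.

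Of 8 necroptosis partners, 3, 4, 2 and 3 were called as higher and 1, 1, 1 and 0 as lower, in the same order, and the 2 of 8 in WT males stand against 18% of all genes. Zbp1, a nucleic acid sensor that activates Ripk3, rose by 1.55 ± 0.34, 1.64 ± 0.33, 1.76 ± 0.24 and 1.67 ± 0.23. Tnfaip3, which encodes the ubiquitin-editing protein A20, rose by 1.78 ± 0.27, 2.11 ± 0.29, 3.21 ± 0.41 and 3.47 ± 0.42. Pgam5, a mitochondrial phosphatase, was called in none.

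Of 12 inflammasome and pyroptosis partners, 2, 4, 7 and 6 were called as higher and 0, 2, 2 and 3 as lower, and the 2 of 12 in WT females stand near the 13.9% of all genes. Pycard, the adaptor ASC that joins sensors to Casp1, rose by 1.61 ± 0.50, 2.06 ± 0.51, 2.43 ± 0.39 and 2.95 ± 0.40. Nlrp3, the sensor of the best known inflammasome, rose by 1.86 ± 0.51, 1.29 ± 0.44, 2.20 ± 0.58 and 1.44 ± 0.57 from 0 to 11 counts per ND-fed library. Of the cytokines that Casp1 cleaves, Il1b rose in males (1.87 ± 0.67 and 1.34 ± 0.54) and Il18 fell in males (-0.71 ± 0.25 and -0.64 ± 0.24). In females neither cytokine was called, with values of 0.88 and 1.02 for Il1b and -0.55 and -0.23 for Il18. Il18 was called in no comparison with total counts alone and turned to 0.0083 in Cyp2b-null females, where Il1b was called (1.26).

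Of 8 inhibitors of apoptosis, 1, 2, 5 and 4 were called as higher and 0, 2, 2 and 1 as lower, and the 1 of 8 in WT females stands near the 13.9% of all genes called as higher. Birc5, or survivin, which also serves in cell division, rose by 2.25 to 3.56 on the log2 scale. Xiap, a direct inhibitor of caspases, fell in Cyp2b-null females (-0.64 ± 0.22) and in males (-0.41 ± 0.13 in both genotypes), and was called in none of these with total counts alone, at -0.36, -0.029 and -0.043. Of 17 genes of the BCL2 family tested in females and 16 in males, 8, 7, 10 and 10 were called as higher and 1, 1, 0 and 0 as lower. Their median was 0.53, 0.51, 0.66 and 0.55, also with Bcl2a1a (named after its values were seen), at 0 in all ND-fed Cyp2b-null females and at least 11.7-fold higher on CDAHFD against 3 counts over the group, set at that bound. Bcl2a1b, an antiapoptotic gene of leukocytes, rose by 2.86, 3.90, 4.90 and 4.62, and since it has near-identical copies its reads may be shared with them. Of 6 genes of the apoptosome and of mitochondrial release, 1, 2, 1 and 2 were called as higher and 2, 0, 2 and 2 as lower. Apaf1, the scaffold of the apoptosome, rose by 1.24 ± 0.34, 1.11 ± 0.36, 1.76 ± 0.26 and 2.07 ± 0.27, while Cycs, cytochrome c, was called in none. Endog and Aifm1 (the latter named after its values were seen), which encode mitochondrial proteins that move to the nucleus in dying cells, fell in WT females (-0.81 and -0.36), WT males (-0.62 and -0.38) and Cyp2b-null males (-0.53 and -0.50), and with total counts alone only Endog in WT females was called (-0.49).

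**Figure D4:**
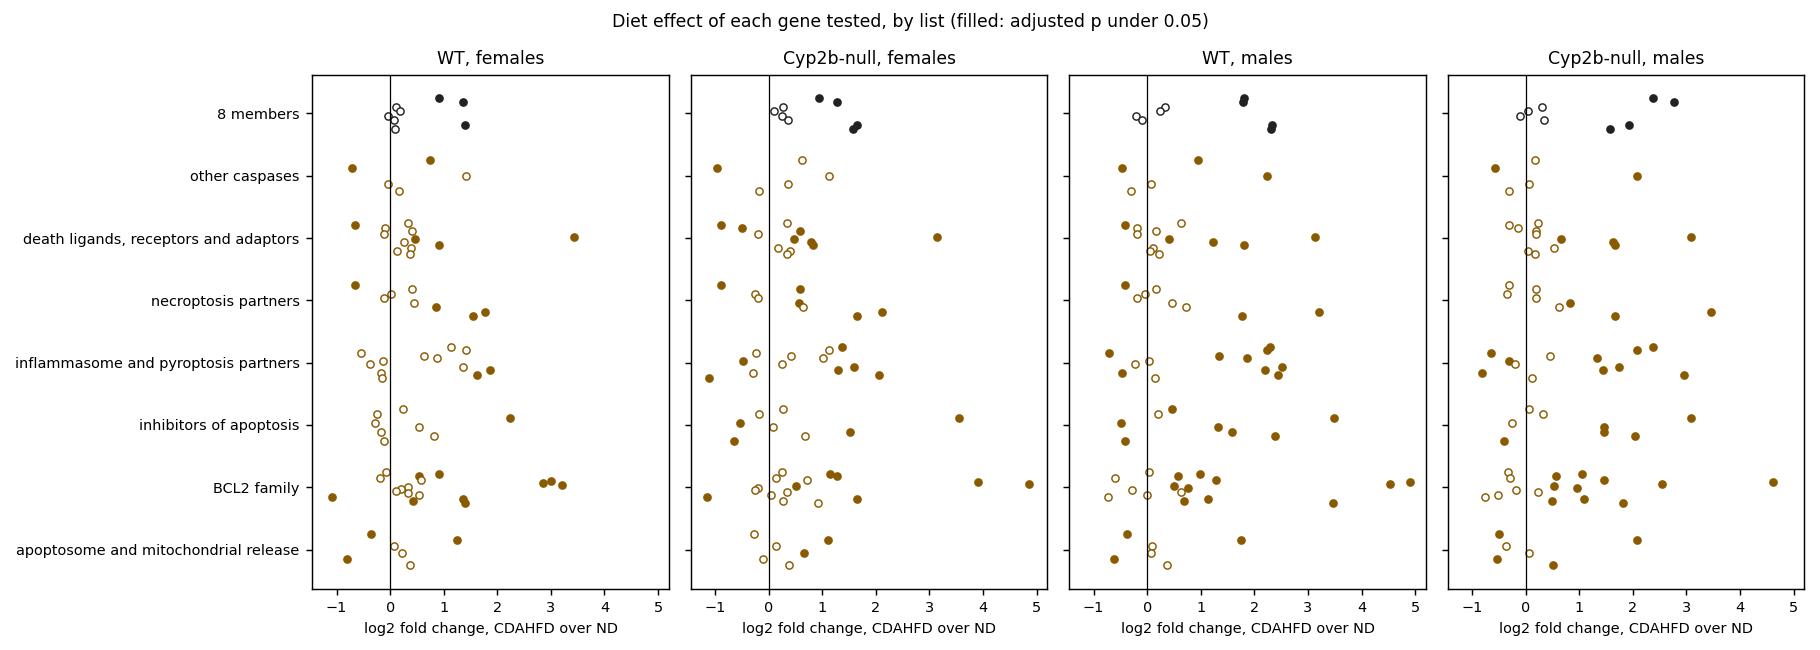
Log2 fold change, CDAHFD over ND, of every gene tested in the 8 members (black) and in each list of pathway genes (brown), in 4 panels by genotype and sex. Filled points have an adjusted p under 0.05; filled points lie mostly to the right of 0, and Bcl2a1a is left out for Cyp2b-null females, where all ND-fed libraries had 0 counts.

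Between genes, levels were compared per kilobase of exon. Gsdmd and Casp8 were the highest of the 8 in every group, at 13.7 and 10.4 CPM per kilobase in ND-fed WT females. Casp12 and Ripk3 were the lowest in every group, at 0.426 and 0.969 CPM per kilobase in the same mice, and Casp1 was always the sixth. Mlkl ranked 5 of 8 in all 4 ND-fed groups and 3 or 4 in the CDAHFD-fed groups. In CDAHFD-fed males Mlkl was at 6.51 ± 1.55 (SD) and Fas at 5.93 ± 1.04 CPM per kilobase in WT mice, a difference within the spread. Part of the Casp8 sequence is shared with other genes (8.36% of its 31-base words), and Mlkl overlaps a pseudogene on the opposite strand, so that their counts may hold reads of these.

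The genes whose profiles over the 8 groups were nearest were listed for each member, by the root mean square difference of centred log2 group means among 12978 genes. For Mlkl these were Ly6e (0.0869) and Thbs2 (0.108), for Casp1 Oraov1 (0.0718) and Scara3 (0.110), for Casp12 Adcy3 (0.118) and Ehd4 (0.129), and for Ripk3 H2-T10 (0.202). The range of the centred group means was 2.32 for Mlkl, 2.51 for Casp1, 2.97 for Casp12 and 2.52 for Ripk3, and 0.27 to 0.40 for the 4 members that were not called. The distances of Fas, Casp8, Casp6 and Gsdmd to their nearest genes were 0.0247 to 0.0338.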

How the data were processed

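RNA was extracted from whole livers with TRIzol and libraries were made with the NEB Next Ultra kit. The deposited tables hold raw counts per gene, which the authors made with FastQC, Trimmomatic, GSNAP (build GRCm38.p6) and Subread featureCounts; versions, strand and multi-mapping settings are not given in the sources used here. All values were whole numbers that differed in total between libraries, and 0 columns were left unused.

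Genes were filtered in each sex with filterByExpr of edgeR 4.0.16 (smallest count 10, smallest total 15, R 4.3.3) and scaled with TMM factors. They were tested with edgeR's quasi-likelihood F test in a model of the 4 groups per sex. For sex differences, filtering, scaling and testing were done over all 8 groups together. Benjamini-Hochberg adjustment covered every gene tested, and an adjusted p under 0.05 was called. SEs and 95% confidence intervals are those of the fit. P-values rest on the spread between the 4 libraries within each group, estimated over all groups of the fit and moderated across genes. Each library is named by its replicate number. No pairing of mice is stated. In simulated data for the diet effect in WT mice, 61% of 100 genes changed by 2-fold and 94% of those changed by 4-fold were recovered in females, and 75% and 95% in males. False calls numbered 8 in females and 9 in males. The changed genes were drawn at random, as many raised as lowered, and all others were left unchanged. These rates therefore do not cover a diet effect on many genes or genes as scarce as Ripk3.

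Alternatives were DESeq2 1.42.0, RLE factors, total counts alone, no low-count filter, only the groups compared, a replicate block, and fits that each left out 1 library; for the wider lists, RLE factors and total counts alone were added after the data were seen. Level per kilobase used the exon length of GENCODE vM21. Group profiles were log2 CPM means with a prior count of 1. Promoter windows and gene positions were from RefSeq (GRCm38.p6). Besides the 8 members, each list's 2 genes with the largest and 1 with the smallest diet effect in WT females were named, with Casp4, Casp9, Bid, Cflar, Ripk1, Fadd, Nlrp3, Pycard, Il1b and Il18, and the 2 nearest genes by profile. Some genes that this rule names are not reported here. The members and lists were chosen with earlier results of these data known.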

Additional observations from a re-analysis of the deposited data

Results flagged for a closer look

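Of 64 combinations of a member and a group, 3 held a library whose gap to the others exceeded Dixon's 95% critical value, and chance alone gives about 1 in 20. Casp12 was at 10.4 CPM in CDAHFD-fed Cyp2b-null male 3, against 3.84 to 4.75 CPM in the other libraries of that group. Casp8 was at 42.5 CPM in ND-fed WT female 2, against 24.4 to 27.4 CPM. Ripk3 was at 3.0 CPM in ND-fed WT female 1, against 1.90 to 2.03 CPM. Leaving out that library did not change whether that gene was called for diet in the same sex and genotype.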

How the results depend on the processing

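The 8 members' diet calls kept their direction under every alternative, apart from values that were not called. With total counts alone, 5 members were called in WT females, 7 in Cyp2b-null females and 6 in males of either genotype, and Fas turned to 0.28 in WT females, 0.19 in WT males and 0.28 in Cyp2b-null males, Gsdmd to 0.31 in WT males and, for genotype on CDAHFD in females, to -0.012. The genotype effect on Casp8 in CDAHFD-fed males, near 0, turned to -0.0010 with RLE factors, -0.0015 with only the groups compared and -0.0049 with the replicate block. The wider lists were set against other scalings after the data were seen. With total counts alone, values that were not called turned positive for Ripk1 (0.21 in WT females, 0.054 in Cyp2b-null females, 0.21 in WT males), Casp9 (0.067 in Cyp2b-null females, 0.11 and 0.079 in WT and Cyp2b-null males), Xiap (0.21) in WT females, Clec4f (0.14), Endog (0.13) and Il18 (0.0083) in Cyp2b-null females and Cflar (0.058) in Cyp2b-null males, and RLE factors moved none of these signs. Causes were not tested.

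Counts over all genes moved where few were called. For genotype on ND, on CDAHFD and the interaction in females, DESeq2 called 23, 5 and 2 genes, and 122, 69 and 46 were called without the low-count filter, which tests more genes. In males DESeq2 called 61 for genotype on ND and 8 for the interaction, and without the filter 170, 51 and 95 were called; total counts alone gave 3 and 2 for genotype on ND and the interaction, and only the groups compared gave 2 for genotype on ND. For the sex differences of diet in WT, of diet in Cyp2b-null and of genotype on CDAHFD, DESeq2 gave 216 in the first and 2 in the last, and no filter gave 469, 923 and 49.

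Leaving out 1 library at a time gave, over all genes, 5 to 11 for genotype on ND in females, 0 to 1 for the interaction in females, 2 to 29 for genotype on ND in males (29 without ND-fed WT male 2), 1 to 5 for genotype on CDAHFD in males, 0 to 3 for the interaction in males, and 84 to 263, 240 to 584 and 0 to 2 for the 3 sex differences. Members called for the sex difference in WT numbered 0 to 1. Signs changed for values that were not called: for diet in WT females Ripk3 (-0.017 to 0.29), Gsdmd (-0.020 to 0.21) and Fas (-0.12 to 0.021), for diet in WT males Gsdmd (-0.14 to 0.00092), for diet in Cyp2b-null mice Casp8 (-0.025 to 0.20 in females, -0.13 to 0.19 in males), for genotype on CDAHFD in females Gsdmd (-0.071 to 0.13), and in males Casp8 (-0.091 to 0.14), Casp12 (-0.082 to 0.65), Ripk3 (-0.053 to 0.67) and Mlkl (-0.10 to 0.17). Beyond the losses given above, 6 values passed the threshold in such fits, of Casp6, Gsdmd and Ripk3.

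Same-numbered libraries deviated together with correlations of -0.157 to 0.288 (median 0.0124) in females and -0.345 to 0.334 (median 0.00293) in males. The medians for libraries of different numbers were -0.00141 and -0.0094. Of 24 same-numbered pairs per sex, 6 in females and 8 in males were over 0.1. These values do not settle whether single libraries were paired. With the replicate block 8 genes were called for genotype on ND in males, and no count of members called changed. Ripk3, Casp1 and Casp12 had few counts, and the depth limits how precisely their changes are known.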
